A study of Mus musculus with 20 samples.

Results

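The genes described here encode 10 amino acid transporters of the cell surface: Slc3a2, Slc7a1, Slc7a3, Slc7a5, Slc7a6, Slc1a4, Slc1a5, Slc38a1, Slc38a2 and Slc6a9. They were chosen by name with earlier results of these data known, so the values of all genes given beside theirs serve for scale only. They are 10 of the 18820 genes that could be tested on the array. Each gene is represented by the probe sets that the array's annotation gives its symbol alone, 11 of the 21218 probe sets with 1 symbol. Slc38a1 has 2 such probe sets, and the one with the higher mean over all arrays was used. The arrays hold total RNA from 2 mouse lines sold as hypothalamic neurons, mHypoE-46 (here E46) and mHypoA-2/12 (here A2/12). The study text describes E46 as responding to serotonin and A2/12 as not responding, and its stated interest is the mRNA and release of the appetite peptide Npy. In all groups the cells were kept in serum-free medium for 4 h before the exposure, which lasted 24 h.

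There are 5 groups of 4 arrays. E46 cells served as controls or had serotonin at 100 or at 1 µg/ml according to the sample titles, and A2/12 cells served as controls or had 100 µg/ml. The descriptions of the treated E46 samples swap the numbers 100 and 1, so these groups are named here by their titles, as labelled 100 and labelled 1. Each cell type is represented by 1 line, so a difference between the lines is a difference between these cultures.

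Cells cannot make all amino acids, and they take them up through families of membrane carriers that differ in their substrates. Light chains such as Slc7a5 and Slc7a6 work only when bound to the heavy chain Slc3a2, and they trade one amino acid for another. Other carriers use the sodium gradient to concentrate small neutral amino acids, which the exchangers can then swap for leucine and other large ones. When amino acids run short or unfolded proteins build up, the transcription factor ATF4 is known to raise many of these genes. In the brain, glycine uptake by Slc6a9 also ends or tunes neurotransmission.

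Values are log2 expression levels of 1 probe set per gene, so a difference of 1 is a doubling. A level was taken to be above background where the group mean exceeded the level below which 95% of 1157 odorant and pheromone receptor genes lay, 4.35 to 4.66 in the 5 groups. All 10 transporters were above it in every group, the lowest being Slc7a3 in A2/12 controls at 7.16 ± 0.26 (SD, n = 4 arrays, as for all group means below). Of the 17663 genes that are not such receptors, 12775 were above it in E46 controls and 12834 in A2/12 controls. In the treated groups 11816 to 12722 were. The counts of markers below are to be read beside these. Levels of different genes come from different probes and are not ranked against each other. Pairwise correlations of the arrays over all probe sets ran from 0.927 to 0.995. In 4 arrays the upper quartile of all values was under 8.2, from 8.09 to 8.16: E46 control replicate 1, replicates 1 and 3 of E46 at labelled 1, and A2/12 control replicate 2. Of 13 neuron markers measured, 7 were above background in the controls of each line. Map2 was at 10.43 in E46 and 9.62 in A2/12, while Rbfox3, Snap25, Dcx, Nefl, Nefm and Elavl4 were not above background in either. Of 8 fibroblast and mural markers, 6 were above background in both lines. Their summed level ran from 72.0 to 72.7 in E46 controls and from 59.3 to 64.4 at labelled 100, and in A2/12 from 77.4 to 78.3 and from 59.3 to 63.3. Of these genes Lum and Rgs5 were not above background in the controls of either line. Of 8 microglia and macrophage markers, 5 were above background in A2/12 controls and 3 in each other group. Their summed level ran from 40.7 to 47.9 in A2/12 controls, from 38.4 to 39.4 in A2/12 at labelled 100 and from 38.9 to 40.3 in E46 controls. Csf1r varied widely among the A2/12 controls (4.64 ± 1.25). The part of cell makeup in the results was not tested, and in bulk RNA fewer cells of a type cannot be told apart from less RNA per cell.

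Promoter sequence in the RefSeq tables (mouse assembly GRCm38.p6) was found for 6 of the 10 genes, in 10 windows that reach from 250 bases before to 50 after an annotated start. The windows of Slc7a6 and Slc38a2 were searched and are not printed. The 4 genes shown rose in both lines at labelled 100. Slc7a1 and Slc6a9 rose by 1.35 to 1.53, and the heavy chain Slc3a2 by 0.49 in E46 and 0.59 in A2/12. Slc1a4 rose by 1.03 in E46 and 1.49 in A2/12, where the medians of the 10 transporters were 1.07 and 0.72. The start-proximal bases of these 4 genes are shown. They are written 5′ to 3′ on the gene's strand, with capitals for letters that match a composite element of the kind bound by ATF4 dimers (TGATGNAAN, either strand) or a GC box (GGGCGG, either strand). The motifs were chosen after the values were seen. Slc7a1 has 2 annotated starts and Slc6a9 has 3, and for each gene the start farthest upstream is shown.
Slc1a4, chr11:20332710-20332813, minus strand, the 100 bases before the start and the 4 after: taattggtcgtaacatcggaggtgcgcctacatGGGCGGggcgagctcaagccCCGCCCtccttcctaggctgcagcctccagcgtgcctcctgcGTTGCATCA
Slc7a1, chr5:148399905-148400004, minus strand, the 100 bases before the start: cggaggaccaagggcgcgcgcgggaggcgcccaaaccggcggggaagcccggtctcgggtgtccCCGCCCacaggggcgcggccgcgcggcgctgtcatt
Slc6a9, chr4:117835158-117835257, plus strand, the 100 bases before the start: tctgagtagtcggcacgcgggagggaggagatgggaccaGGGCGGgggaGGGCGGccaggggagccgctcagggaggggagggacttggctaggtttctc
Slc3a2, chr19:8713898-8713997, minus strand, the 100 bases before the start: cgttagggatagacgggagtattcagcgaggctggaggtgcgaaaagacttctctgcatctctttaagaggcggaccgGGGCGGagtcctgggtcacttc
The composite element occurred in 1 of the 10 windows, that of Slc1a4, where the match GTTGCATCA lies on the opposite strand and starts 5 bases before the transcription start. It occurred in 3.95% of all 32851 windows of this length. The GC box occurred in 7 of the 10 windows, against 35.66% of all windows. Each of the 6 genes had it in at least 1 window, while the windows of Slc7a1 and Slc6a9 at their other starts held none. The share of all genes with a GC box in at least 1 window was not counted. A match describes the letters and not a bound site, and its absence says only that these letters are not in the window.

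In E46 at serotonin labelled 100 all 10 transporters rose, and the 4 arrays with serotonin lay above the 4 controls for every one of them. How many of all genes separated in this way was not counted. Among all genes 20.3% were called higher and 19.3% lower in this comparison. The changes ran from 0.28 to 2.20, with a median of 1.07 against -0.00 over all genes. Slc7a3, Slc7a1, Slc1a5 and Slc6a9 moved most, and the heavy chain Slc3a2, the light chain Slc7a6 and Slc38a2 least. In A2/12 at labelled 100, 8 of the 10 rose, while 24.8% of all genes were called higher and 21.1% lower. The median change of the 10 was 0.72 against 0.00 over all genes. Slc7a5 and Slc38a2 did not pass the test there. At labelled 1 none of the 10 was called in E46, where 0.00531% of all genes were called higher and 0.00531% lower. Centring each array on its median moved the median of all genes to 0.12 in E46 and 0.16 in A2/12 and the share of calls that were higher from 51.3% to 66.4% and from 54.0% to 68.8%, and it left the 10 increases in E46 called and made 10 of 10 called in A2/12. Within the arrays of a single position number of the scan names (5, 7 or 9), all 10 values in E46 were above 0 and 4 to 8 of the 10 were called. Those fits hold 6 or 7 arrays, with 1 array in 3 or 4 of the 5 groups and 1 or 2 residual degrees of freedom, so each call there assumes that a single array varies like the others. Whether the 4 samples of a group were grown separately is not stated, so the spread behind the p-values may be technical. The 2 lines share no control arrays. The scan names also carry a row letter, which runs in the order of the groups, A to D in E46 and E to G in A2/12. Controls and arrays at labelled 100 share only row B in E46 and row F in A2/12. An effect of row was not tested, and it cannot be told apart from line or, for the most part, from treatment.

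**Figure D1:**
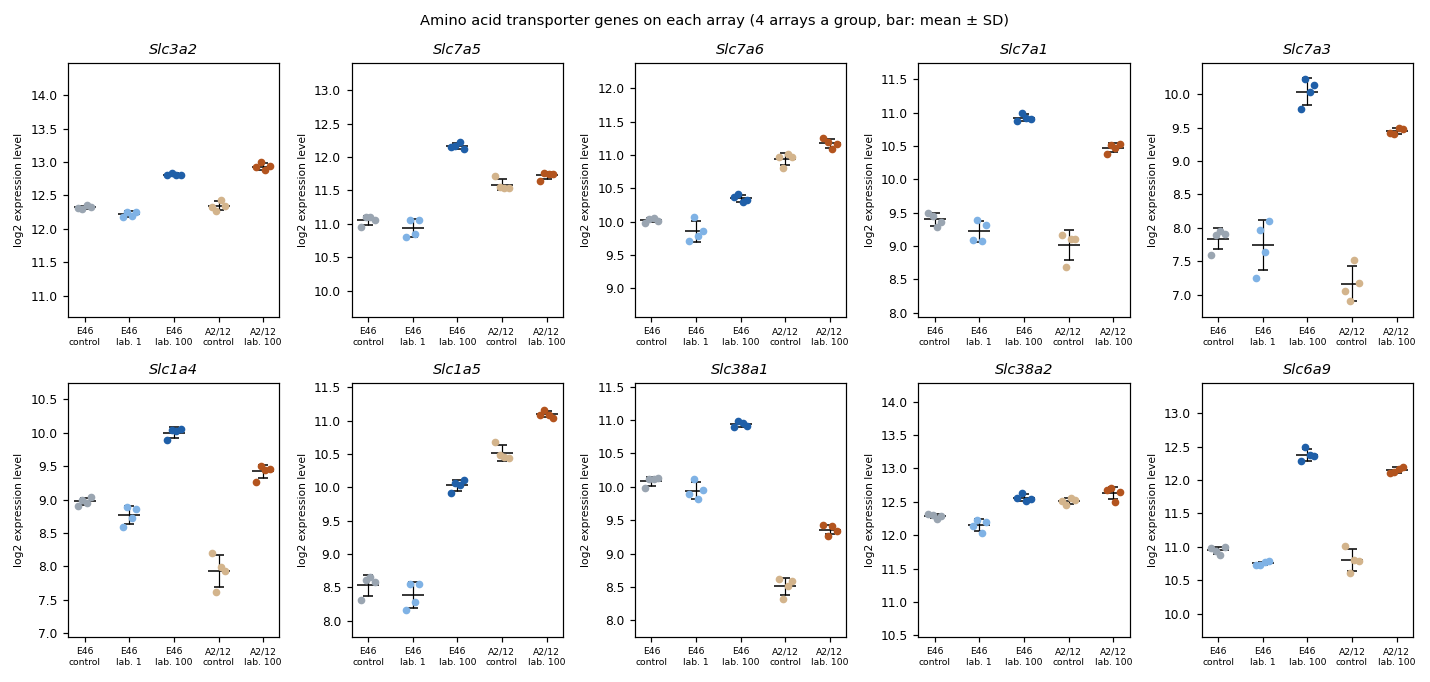
Log2 expression level of the 10 transporter genes on every array, in 5 groups of 4 arrays (points), with the group mean and SD (bars), each panel spanning the same number of log2 units. E46 at labelled 100 sits above E46 controls in all 10 panels, E46 at labelled 1 sits beside or slightly under the controls, and A2/12 at labelled 100 overlaps its controls for Slc7a5 and Slc38a2.

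Slc3a2, also called CD98 heavy chain or 4F2hc, carries its light chains to the membrane and is needed for their transport. Its E46 control arrays read 12.31, 12.29, 12.35 and 12.33, and those at labelled 100 read 12.80, 12.84, 12.81 and 12.80. In A2/12 the controls read 12.33, 12.27, 12.43 and 12.35, and the arrays at labelled 100 read 12.93, 12.99, 12.88 and 12.94. The groups did not overlap in either line. The increase was 0.49 ± 0.05 (SE) in E46 (1.41-fold, adjusted p = 1.89e-07) and 0.59 ± 0.05 in A2/12 (1.5-fold, adjusted p = 8.21e-09). The controls of the lines differed by -0.02 ± 0.05, E46 minus A2/12, which was not called (adjusted p = 0.787). The responses of the lines differed by 0.10 ± 0.08, with a 95% confidence interval from -0.06 to 0.25 (adjusted p = 0.437).

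The light chain Slc7a5, known as LAT1, imports leucine, tryptophan and other large neutral amino acids in exchange for glutamine, and its response differed between the lines. In E46 the controls read 10.96, 11.10, 11.10 and 11.05 and the arrays at labelled 100 read 12.15, 12.16, 12.22 and 12.12. In A2/12 the controls read 11.71, 11.56, 11.54 and 11.54 and the arrays at labelled 100 read 11.64, 11.76, 11.75 and 11.75. The E46 arrays at labelled 100 thus held the highest values of this gene, and the A2/12 groups overlapped through replicate 1 of each. The gene rose by 1.11 ± 0.07 in E46 (2.16-fold, adjusted p = 7.11e-11). In A2/12 its change was 0.14 ± 0.07 (adjusted p = 0.123), which was called without A2/12 control replicate 1 (0.18, adjusted p = 0.0486). The difference of the responses, A2/12 minus E46, was -0.97 ± 0.10 (adjusted p = 2.22e-07), and it was -1.10, -0.90 and -0.83 within the arrays whose scan position carries the number 5, 7 or 9 (adjusted p = 0.0366, 0.0306 and 0.778, from single arrays in most groups). Before serotonin the E46 controls were lower than those of A2/12 by 0.54 ± 0.07 (adjusted p = 2.04e-06). With serotonin E46 stood at 12.16 ± 0.04 and A2/12 at 11.73 ± 0.06, so the order of the lines was the reverse of that in the controls, a difference at labelled 100 that was not tested.

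Slc7a6, or y+LAT2, also binds Slc3a2 and exports arginine in exchange for glutamine and sodium. It moved little in both lines. The E46 controls lay from 9.98 to 10.06 and the arrays at labelled 100 from 10.29 to 10.41, an increase of 0.33 ± 0.07 (adjusted p = 0.000796). The A2/12 controls lay from 10.81 to 11.02 and the treated arrays from 11.09 to 11.25, an increase of 0.23 ± 0.07 (adjusted p = 0.011). The groups did not overlap in either line, and the level in A2/12 controls was higher than in E46 controls by 0.92 (E46 minus A2/12: -0.92 ± 0.07, adjusted p = 9.99e-10).

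The cationic amino acid carriers Slc7a1 and Slc7a3 (CAT1 and CAT3) import arginine, lysine and ornithine without a heavy chain, and they rose in both lines. Slc7a3 had the largest change of the 10. Its E46 controls read 7.60, 7.90, 7.95 and 7.91 and its arrays at labelled 100 read 9.77, 10.22, 10.03 and 10.14. Its A2/12 controls read 7.05, 6.90, 7.51 and 7.17 and the treated arrays 9.42, 9.40, 9.49 and 9.47. All arrays with serotonin labelled 100 thus lay well above all controls of both lines. The increase was 2.20 ± 0.15 in E46 (4.60-fold, adjusted p = 2.67e-10), where it ranked 24 among the 18820 genes, and 2.29 ± 0.15 in A2/12 (4.88-fold, adjusted p = 6.03e-11), where it ranked 41. The spread of Slc7a3 was widest in E46 at labelled 1, from 7.25 in replicate 1 to 8.10 in replicate 4.

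Slc7a1, the widely used arginine carrier, read 9.50, 9.45, 9.28 and 9.36 in E46 controls and 10.87, 11.00, 10.92 and 10.91 at labelled 100. In A2/12 it read 9.17, 8.69, 9.11 and 9.11 in controls and 10.39, 10.52, 10.47 and 10.53 at labelled 100. No array at labelled 100 reached down to a control, and replicate 2 of the A2/12 controls was the lowest of all. The increases were 1.53 ± 0.10 in E46 (2.88-fold, adjusted p = 7.06e-11) and 1.46 ± 0.10 in A2/12 (2.75-fold, adjusted p = 4.86e-11). The difference of the responses was -0.07 ± 0.14, with a 95% confidence interval from -0.35 to 0.21 (adjusted p = 0.794), and for Slc7a3 it was 0.08 ± 0.22, from -0.37 to 0.53 (adjusted p = 0.847). In controls both genes were higher in E46 than in A2/12, Slc7a1 by 0.38 ± 0.10 (adjusted p = 0.00298) and Slc7a3 by 0.68 ± 0.15 (adjusted p = 0.00105).

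The close relatives Slc1a4 and Slc1a5 (ASCT1 and ASCT2) exchange alanine, serine and cysteine, and Slc1a5 also carries glutamine. Both rose in both lines, and they differed between the lines in opposite directions. Slc1a4 read 8.90, 9.0, 8.95 and 9.03 in E46 controls and 9.89, 10.04, 10.02 and 10.06 at labelled 100. The A2/12 arrays read 8.2, 7.61, 7.99 and 7.92 in controls and 9.27, 9.50, 9.45 and 9.46 at labelled 100. The increase was 1.03 ± 0.10 in E46 (2.04-fold, adjusted p = 2.64e-08) and 1.49 ± 0.10 in A2/12 (2.81-fold, adjusted p = 5.18e-11). The line with the lower controls thus had the larger increase, a difference of 0.46 ± 0.14 (adjusted p = 0.0201). Within the position numbers 5, 7 and 9 the difference was 0.33, 0.79 and 0.42, and it was called in none of them (adjusted p = 0.74, 0.0679 and 1.0).

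Slc1a5 read 8.31, 8.61, 8.66 and 8.58 in E46 controls and 9.92, 10.07, 10.03 and 10.10 at labelled 100. A2/12 arrays read 10.69, 10.49, 10.45 and 10.44 in controls and 11.09, 11.16, 11.09 and 11.05 at labelled 100. Every A2/12 control was thus above every E46 array, with or without serotonin. The increase was 1.49 ± 0.09 in E46 (2.82-fold, adjusted p = 6.02e-11) and 0.58 ± 0.09 in A2/12 (1.49-fold, adjusted p = 1.99e-05). The difference of the responses was -0.92 ± 0.13 (adjusted p = 1.91e-05), and -1.06, -0.82 and -0.71 within the position numbers 5, 7 and 9 (adjusted p = 0.0619, 0.0491 and 0.992). Over all genes 10.9% were called with a larger and 11.1% with a smaller response in A2/12. Among the 10 transporters Slc1a4 was called larger and Slc7a5 and Slc1a5 smaller. Control arrays enter both the response and the level of a line, so a low control level and a large response are not independent.

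**Figure D2:**
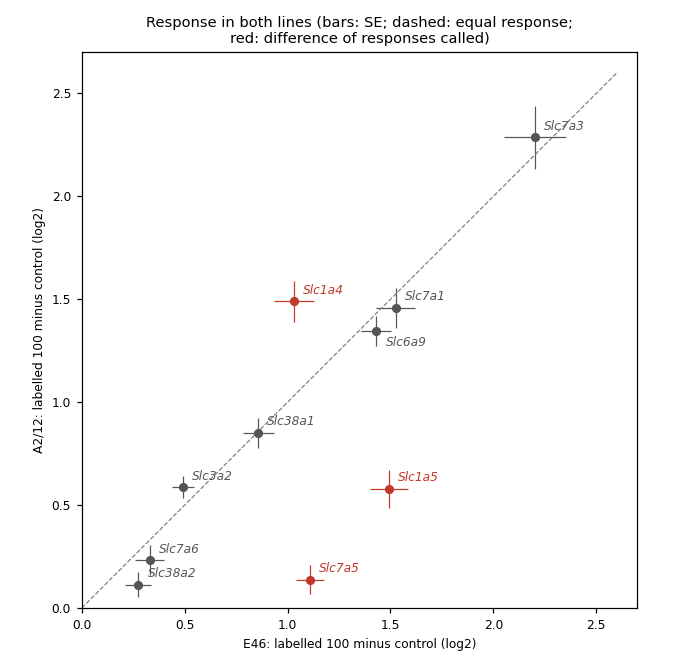
Change at labelled 100 against the same line's controls (log2 ± SE, 4 arrays a group) in E46 on the horizontal and in A2/12 on the vertical axis, for the 10 transporters, with a dashed line of equal response. Slc7a5 (1.11 and 0.14) and Slc1a5 (1.49 and 0.58) lie under the line, Slc1a4 (1.03 and 1.49) lies above it, and the other 7, whose difference was not called, lie near it.

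Slc38a1 and Slc38a2 (SNAT1 and SNAT2) bring small neutral amino acids such as glutamine and alanine into the cell with sodium. Slc38a1 read 9.98, 10.11, 10.11 and 10.12 in E46 controls and 10.90, 10.98, 10.96 and 10.91 at labelled 100. In A2/12 it read 8.62, 8.33, 8.51 and 8.58 in controls and 9.42, 9.26, 9.41 and 9.34 at labelled 100. Every E46 array was above every A2/12 array. The increase was 0.86 ± 0.07 in E46 (1.81-fold, adjusted p = 7.29e-09) and 0.85 ± 0.07 in A2/12 (1.8-fold, adjusted p = 4.52e-09), with a difference of -0.01 ± 0.11 and a 95% confidence interval from -0.23 to 0.21 (adjusted p = 0.974). The other probe set of Slc38a1, with a mean level of 6.51 against 9.77, gave 1.04 ± 0.23 in E46 (adjusted p = 0.00139 over all probe sets) and 0.48 ± 0.23 in A2/12 (adjusted p = 0.12), where the 2 probe sets therefore stood on different sides of the threshold.

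Slc38a2, which is known to adapt to amino acid supply, read 12.31, 12.31, 12.24 and 12.29 in E46 controls and 12.55, 12.64, 12.52 and 12.54 at labelled 100. The same gene in A2/12 read 12.52, 12.46, 12.56 and 12.53 in controls and 12.67, 12.71, 12.49 and 12.65 at labelled 100. The E46 groups were separate, while replicate 3 of the treated A2/12 arrays fell among the controls. The increase was 0.28 ± 0.06 in E46 (1.21-fold, adjusted p = 0.00116). In A2/12 the change was 0.11 ± 0.06 (adjusted p = 0.159), which was called without that replicate (0.16, adjusted p = 0.0461). The difference of the responses was -0.16 ± 0.09, with a 95% confidence interval from -0.35 to 0.02 (adjusted p = 0.232).

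Slc6a9, the sodium- and chloride-driven glycine carrier GlyT1, read 10.98, 10.93, 10.87 and 11.00 in E46 controls and 12.28, 12.50, 12.38 and 12.36 at labelled 100. A2/12 had 11.02, 10.61, 10.80 and 10.79 in controls and 12.11, 12.12, 12.16 and 12.20 at labelled 100. The groups were separate in both lines, and the controls of the lines overlapped. The increase was 1.43 ± 0.07 in E46 (2.7-fold, adjusted p = 4.95e-12) and 1.35 ± 0.07 in A2/12 (2.54-fold, adjusted p = 2.74e-12). The difference of the responses was -0.09 ± 0.10, with a 95% confidence interval from -0.30 to 0.13 (adjusted p = 0.647).

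**Figure D3:**
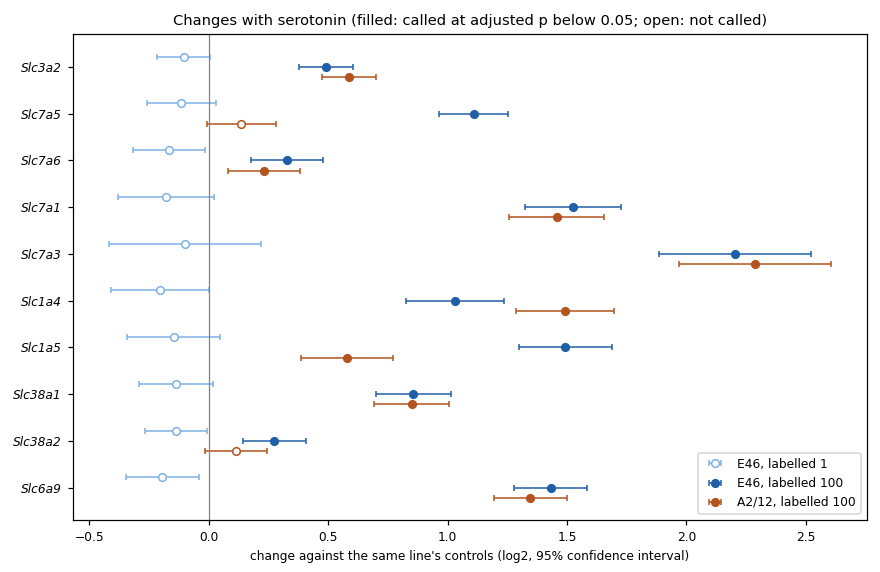
Change of the 10 transporters against the same line's controls (log2, bars are 95% confidence intervals, 4 arrays a group) for E46 at labelled 1, E46 at labelled 100 and A2/12 at labelled 100, with filled points called and open points not called. The points of E46 at labelled 1 all lie between -0.21 and -0.10 and are open, and Slc7a3 lies farthest to the right, at 2.20 in E46 and 2.29 in A2/12.

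The comparison of E46 at labelled 1 with its controls asked whether the group with the lower titled dose changed as well. None of the 10 transporters was called by limma, and their values ran from -0.21 (Slc1a4) to -0.10 (Slc7a3), with a median of -0.14 against -0.04 over all genes. Of all genes 1 was called higher and 1 lower, 0.00531% each, while 1022 and 1971 had an unadjusted p below 0.05. Without replicate 2 at labelled 1 the 2 called genes became 284. Before adjustment 4 of the 10 were below 0.05, all on the lower side: Slc7a6 (-0.17), Slc1a4 (-0.21), Slc38a2 (-0.14) and Slc6a9 (-0.19). The Slc6a9 arrays read 10.73, 10.73, 10.77 and 10.78, all under the controls. Replicates 1 and 3 of this group, those with a low upper quartile, were its 2 lowest arrays for 9 of the 10 transporters, all but Slc6a9. For Slc7a1 the 4 arrays read 9.09, 9.39, 9.07 and 9.32, and for Slc1a5 8.17, 8.55, 8.29 and 8.55. When the 4 arrays with an upper quartile under 8.2 were dropped, the values of the 10 ran from -0.18 to 0.11 with a median of -0.07, and after centring each array on its median from -0.10 to 0.00. Against labelled 1, all 10 were higher at labelled 100, by 0.41 to 2.30 with a median of 1.23, where 23.6% of all genes were called higher and 17.8% lower. This comparison and that with the controls share the arrays at labelled 100.

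In controls the lines differed in 8 of the 10 transporters. Of all genes, 21.1% were higher and 18.1% lower in E46. Slc38a1 (1.57 ± 0.07), Slc1a4 (1.04 ± 0.10), Slc7a3 and Slc7a1 were higher in E46, and Slc1a5 (-1.98 ± 0.09), Slc7a6, Slc7a5 and Slc38a2 (-0.23 ± 0.06, adjusted p = 0.00524) were lower. The arrays of the lines did not overlap for these 8, a separation that was not counted over all genes. The differences of Slc3a2 and of Slc6a9 (0.14 ± 0.07, adjusted p = 0.131) were not called, though that of Slc6a9 was without A2/12 control replicate 1 (0.22, adjusted p = 0.0134). That of Slc38a2 lost its call when each array was centred on its median (-0.20, adjusted p = 0.0686). By the order of the group means, E46 at labelled 100 was highest for Slc7a1, Slc7a3, Slc7a5, Slc1a4, Slc38a1 and Slc6a9, and A2/12 at labelled 100 was highest for Slc3a2, Slc7a6, Slc1a5 and Slc38a2. E46 at labelled 1 was the lowest for Slc3a2, Slc7a5, Slc7a6, Slc1a5, Slc38a2 and Slc6a9, where its difference from E46 controls was not called, and A2/12 controls were the lowest for the other 4.

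The other genes for amino acid carriers of the plasma membrane did not move as a block. Of 39 listed, 35 were measured, and 17 of these were above background in at least 1 group. In E46 at labelled 100, 4 rose, 11 fell and 20 did not pass the test (median -0.08), where 20.3% of all genes were called higher and 19.3% lower. In A2/12, 3 rose, 7 fell and 25 did not pass (median -0.01), beside 24.8% and 21.1% of all genes. Slc7a11, the light chain of the cystine importer that also binds Slc3a2, went from 8.05 ± 0.30 to 11.23 ± 0.08 in E46, a change of 3.17 ± 0.14 (adjusted p = 1.09e-12). In A2/12 it went from 8.31 ± 0.22 to 9.42 ± 0.05, a change of 1.11 ± 0.14 (adjusted p = 1.07e-06), and the responses differed by -2.06 ± 0.20 (adjusted p = 1.33e-07). Its response was thus smaller in A2/12, as those of Slc7a5 and Slc1a5 were. Slc16a10, a carrier of aromatic amino acids, rose in both lines (0.45 ± 0.08 and 0.52 ± 0.08), and Slc6a15, a carrier of branched-chain amino acids, rose in E46 (0.86 ± 0.14), while in A2/12 it was not above background. Slc1a7, a glutamate transporter, was called higher in both lines, with levels of 4.69 in E46 and 4.64 in A2/12 at labelled 100, close to the background level, and control levels that were not above it.

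Those that fell include carriers of the same families. Slc7a2, which carries arginine and lysine like Slc7a1 and Slc7a3, went from 10.44 ± 0.14 to 8.99 ± 0.16 in E46, a change of -1.45 ± 0.10 (adjusted p = 2.17e-10). In A2/12 it was at 11.21 ± 0.09 and 11.25 ± 0.08, and the responses differed by 1.49 ± 0.14 (adjusted p = 8.05e-08). In E46, where Slc7a1 and Slc7a3 rose, Slc7a2 thus fell. The glutamate transporters Slc1a3 and Slc1a2, of the same family as Slc1a4 and Slc1a5, fell in E46 by 1.82 ± 0.13 and 1.54 ± 0.11, and in A2/12 by 0.92 ± 0.13 and 1.07 ± 0.11. They are astrocyte markers as well, a list of which 5 of 8 fell in each line and 1 rose in E46. The taurine carrier Slc6a6 fell in E46 by 1.32 ± 0.07, and its fall in A2/12 was smaller by 0.80 ± 0.10. Slc36a4, a carrier of proline and tryptophan, was at -1.11 ± 0.09 in A2/12 (adjusted p = 1.35e-09), a fall larger than that in E46 by 0.64 ± 0.13. The glutamate transporter Slc1a6 was at -0.81 ± 0.09 in A2/12 (adjusted p = 1.55e-07). Its control level there was 6.82 ± 0.08 and not the background level seen in E46.

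**Figure D4:**
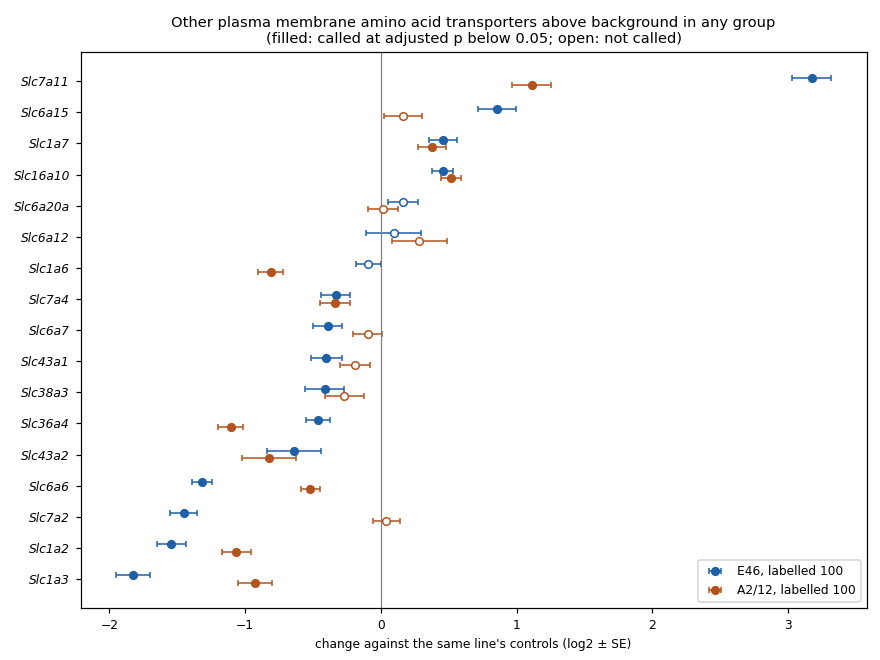
Change at labelled 100 against the same line's controls (log2 ± SE, 4 arrays a group) in E46 and A2/12 for the 17 other plasma membrane amino acid carriers above background in at least 1 group, with filled points called and open points not called. Slc7a11 stands at 3.17 in E46 and 1.11 in A2/12, while Slc1a3, Slc1a2, Slc7a2 and Slc6a6 lie between -1.82 and -1.32 in E46.

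Inside the cell, 27 carriers of synaptic vesicles, lysosomes and mitochondria were measured. In E46 at labelled 100, 11 rose and 5 fell (median 0.13), and in A2/12, 12 rose and 4 fell (median 0.17). Over all genes 20.3% were called higher and 19.3% lower in E46 and 24.8% and 21.1% in A2/12. Slc38a7, the lysosomal exporter of glutamine and relative of Slc38a1 and Slc38a2, rose by 0.85 ± 0.06 in E46 and by 0.85 ± 0.06 in A2/12. Slc25a38, which brings glycine into mitochondria for heme synthesis, rose by 0.68 ± 0.08 and 0.97 ± 0.08. Slc15a4, a lysosomal carrier of histidine and small peptides, rose in E46 by 0.62 ± 0.07, and Slc38a9, the lysosomal arginine sensor, rose in A2/12 by 0.93 ± 0.10. The response of Slc38a9 was larger in A2/12 than in E46 by 0.56 ± 0.14 (adjusted p = 0.00498). The changes of Slc15a4 and Slc38a9 in the other line are not given here. Slc25a12, the aspartate and glutamate carrier of mitochondria, fell by 0.42 ± 0.06 in E46 and by 1.60 ± 0.06 in A2/12, and Sfxn3, a serine carrier of mitochondria, fell by 0.70 ± 0.06 and 1.08 ± 0.06.

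Of 34 measured genes of amino acid sensing around the growth kinase mTORC1, 18 rose and 7 fell in E46 (median 0.23) and 13 rose and 6 fell in A2/12 (median 0.14), beside 20.3% of all genes higher and 19.3% lower in E46 and 24.8% and 21.1% in A2/12. Sesn2, a leucine sensor that restrains mTORC1, rose by 2.15 ± 0.11 in E46 and 1.65 ± 0.11 in A2/12. Its relatives Sesn1 and Sesn3 fell, Sesn1 by 1.34 ± 0.08 and 1.74 ± 0.08 and Sesn3 by 1.04 ± 0.10 and 2.08 ± 0.10. Lars, the leucyl-tRNA synthetase, rose by 1.31 ± 0.07 and 1.13 ± 0.07, and Castor2, of the arginine sensor family, fell by 1.31 ± 0.11 and 0.96 ± 0.11. Of 18 measured genes that turn the response to amino acid shortage on or off, 13 rose and 1 fell in E46 (median 0.76) and 15 rose and 1 fell in A2/12 (median 0.73), to be read against the same shares of all genes. Ppp1r15a, which lets translation restart, rose by 2.88 ± 0.09 and 2.54 ± 0.09, and Trib3, which restrains ATF4, by 2.62 ± 0.11 and 2.96 ± 0.11. The transcription factor gene Myc rose by 1.72 ± 0.07 in E46 and by 2.08 ± 0.07 in A2/12, a larger response in A2/12 by 0.35 ± 0.10 (adjusted p = 0.0116). The kinase gene Eif2ak3 fell by 0.28 ± 0.10 (adjusted p = 0.0318) and 0.55 ± 0.10. At labelled 1 limma called none of the measured genes of these 4 lists, and of all 18820 genes it called 2.

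The genes whose pattern over the 5 group means was most like that of each transporter were found by the root mean square difference after centring each gene on its own mean. For Slc3a2 they were Atg7, an enzyme of autophagy (0.02), Ppp1r8, a regulator of protein phosphatase 1 (0.02), and Ddx47, an RNA helicase (0.03). The nearest was Pla2g12a for Slc7a1 (0.06), Acot2 for Slc7a3 (0.11), Dhtkd1 for Slc7a5 (0.08), Firre for Slc7a6 (0.04) and Dgkh for Slc1a4 (0.05). It was Ampd3 for Slc1a5 (0.14), Creb5 for Slc38a1 (0.09), Sf1 for Slc38a2 (0.01) and BC048403 for Slc6a9 (0.06). No other transporter of the 10 was the nearest gene of any of them, and Slc1a5 had the largest difference from its nearest gene. The difference is in log2 units and is not scaled to how much a gene changes, so it does not rank the transporters by similarity. These are descriptions over 5 groups, without a test.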

How the data were processed

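The deposited values are log2 expression levels that the authors computed with RMA, per the submitters' processing notes (version not given). RMA removes background, makes the arrays' distributions alike and combines the probes of a set into 1 level. Of 35556 probe sets, 21218 have 1 gene symbol in the array's annotation, 1881 several and 12457 none, and the last 2 kinds were left out. For 1386 genes more than 1 probe set remained, of which that with the highest mean was kept, so 18820 genes were tested. Groups and doses follow the sample titles.

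The 20 arrays were analysed in a single linear model of the 5 group means by limma 3.58.1, run in R 4.3.3 (lmFit and eBayes, 15 residual degrees of freedom). P-values were adjusted by Benjamini-Hochberg over all 18820 genes, and a value under 0.05 counted as called. Precision is limited by 4 arrays a group: over all genes the standard error had a median of 0.100, and 0.142 for the difference of the responses. The scripts were tested on simulated data. Promoter windows come from RefSeq tables, whose orientation was checked on 1683 overlapping windows. The plots use Python 3.11.15 and matplotlib 3.10.9.

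The transporters and the other gene lists were chosen with earlier results of these data known, and no test of a list was run. All 10 transporters are named in each comparison. From each other list at most 4 genes a direction with the smallest adjusted p were taken, of which some are named, and 3 genes of similar pattern for Slc3a2 and 1 for each other transporter. Alternatives were a fit per cell line, array weights, trended and robust eBayes, a block for the replicate number or for the position number, single position numbers, median centring, quantile normalization, no collapse of probe sets or their mean, a filter on dim genes, doses taken from the descriptions, and single arrays dropped in turn. Chosen after seeing the data were leaving out 4 arrays with an upper quartile under 8.2 and the upper quartile as a covariate.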

Additional observations from a re-analysis of the deposited data

Results flagged for a closer look

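In 5 of the 50 sets of 4 arrays examined (10 transporters in 5 groups), 1 array stood apart from the other 3 by Dixon's test, which chance does in about 1 in 20 sets. Slc7a1 read 8.689 in A2/12 control replicate 2, where the nearest array read 9.111. Slc7a3 read 7.598 in E46 control replicate 1, with the nearest at 7.898, and Slc38a1 read 9.975 in the same array, with the nearest at 10.11. Both arrays are among the 4 with an upper quartile under 8.2. Slc7a5 read 11.71 in A2/12 control replicate 1 and 11.64 in A2/12 replicate 1 at labelled 100, with the nearest arrays at 11.56 and 11.75, so that the replicates numbered 1 are what makes these groups overlap.

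The responses to labelled 100 differed between the lines, A2/12 minus E46, for 3 of the 10 transporters by the interaction term of the limma model: by -0.972 for Slc7a5, 0.4589 for Slc1a4 and -0.9156 for Slc1a5. Of all genes, 10.9% had a larger and 11.1% a smaller response in A2/12.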

How the results depend on the processing

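The 10 increases in E46 at labelled 100 and the 3 called differences of response (Slc7a5 -0.99 to -0.92, Slc1a5 -0.96 to -0.84, Slc1a4 0.35 to 0.55) kept their direction and call under every alternative other than single position numbers and the other dose label. The replicate block, the position block, quantile normalization, each line fitted alone, trended and robust eBayes, the dim gene filter and other handling of probe sets changed no call of a transporter. The number of arrays limits all small changes, and signals near background would be compressed, though no transporter was near it. At the other end of the scale, the highest values of the arrays ran from 13.73 to 14.03. Group means ran from 12.22 to 12.93 for Slc3a2 and from 12.15 to 12.63 for Slc38a2. Slc6a9 reached 12.38 in E46 at labelled 100. Whether changes at such high levels were compressed was not tested. The replicate numbers did not pair the arrays throughout: deviations of same-numbered arrays correlated from -0.219 to 0.406. In every pair of E46 groups, though, the array numbered 1 was the best match of that numbered 1 (0.237, 0.372 and 0.406). The same held for number 2 between E46 controls and labelled 1 (0.338) and between the groups of the other line (0.33). The remaining arrays matched a different number best. Why some same-numbered arrays deviated together was not tested. With the replicate block 1 gene was called in E46 at labelled 1, against 2 without it.

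Calls changed as follows, and the cause was not tested. In A2/12 at labelled 100, Slc7a5 was called with array weights (0.16), median centring (0.30) and without A2/12 control replicate 1 (0.18), and Slc38a2 with median centring (0.27) and without replicate 3 at labelled 100 (0.16). The difference between the control lines lost its call for Slc38a2 with median centring (-0.20, adjusted p = 0.0686, over a range of 0.000294 to 0.0686) and gained one for Slc6a9 without A2/12 control replicate 1 (0.22). The mean of both probe sets lowered the level of Slc38a1 by up to 1.75, and median centring moved 21 of 50 group levels by more than 1 SD, by at most 0.0972, a shift that all genes of an array share.

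Differences near 0 changed sign. Slc7a3 in E46 at labelled 1 was 0.0219 with array weights, 0.00336 with median centring, 0.0105 with the upper quartile as a covariate, 0.11 when the 4 arrays with an upper quartile under 8.2 were dropped and 0.21 at position 5, and ran from -0.22 to 0.0620 when single arrays were left out. At position 5 alone, Slc7a5 (0.0561), Slc7a6 (0.0681), Slc1a5 (0.11) and Slc38a1 (0.0643) also turned in that comparison, and Slc38a2 in A2/12 at labelled 100 (-0.0339). Among the differences of response, Slc7a3 was -0.0714 with array weights and -0.39 at position 9, and Slc7a1 (0.33), Slc7a6 (0.0889), Slc38a1 (0.26) and Slc6a9 (0.16) turned at position 7. Slc38a1 there was 0.0295 with median centring and 0.00195 with the covariate. Without single arrays, the difference of response ran from -0.00627 to 0.20 for Slc7a3 and from -0.0691 to 0.0289 for Slc38a1. Slc3a2 between the control lines was 0.0198 at position 7 and 0.00942 with centring, and ran from -0.0474 to 0.00547 without single arrays.

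Within single positions 6 or 7 arrays remain and 3 or 4 of the 5 groups hold 1 array, which is assumed to vary like the others, with 1 residual degree of freedom at position 9 and 2 at the others. Of all genes, 7451 were called in E46 at labelled 100, and 3183, 3469 and 871 at positions 5, 7 and 9. For labelled 100 against labelled 1 these were 7796 and 2051, 5107 and 1371. For the difference of response they were 4142 and 886, 1593 and 73, and for the control lines 7368 and 3782, 3674 and 1292. In A2/12 they were 8645 and, at positions 5 and 9, 4161 and 1864. Of the transporters, at position 9, 4 were called in E46 at labelled 100, 4 in A2/12, 0 for the difference of response, and 1 higher and 1 lower between the control lines. At position 5, 5 were called in A2/12 and, for the difference of response, 0 larger and 1 smaller. At position 7, 0 were called larger and, between the control lines, 2 lower. In E46 at labelled 1, the 2 genes called became 0 with each line alone and at positions 5 and 7, and 1 with the position block, at position 9, with centring, with quantile normalization, over all probe sets and after dropping those 4 arrays. They ranged from 1 to 284 without single arrays, with 284 without replicate 2 at labelled 1.

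With the doses of the other label, the E46 groups trade names. At what is then the dose of 100, 0 of the 10 transporters and 2 genes of all were called: Slc3a2 -0.10, Slc7a1 -0.18, Slc7a3 -0.10, Slc7a5 -0.11, Slc7a6 -0.17, Slc1a4 -0.21, Slc1a5 -0.15, Slc38a1 -0.14, Slc38a2 -0.14 and Slc6a9 -0.19. At what is then the dose of 1, 10 transporters rose and 7451 genes were called: Slc3a2 0.49, Slc7a1 1.53, Slc7a3 2.20, Slc7a5 1.11, Slc7a6 0.33, Slc1a4 1.03, Slc1a5 1.49, Slc38a1 0.86, Slc38a2 0.28 and Slc6a9 1.43. The dose of 100 against 1 then gave 0 higher and 10 lower: -0.59, -1.71, -2.30, -1.22, -0.50, -1.24, -1.64, -1.0, -0.41 and -1.63 in the same order. The difference of response then gave 10 larger and 0 smaller, with 7435 of all genes called, and turned for Slc7a1 (1.64), Slc7a5 (0.25), Slc7a6 (0.40), Slc1a5 (0.73), Slc38a1 (0.99), Slc38a2 (0.25) and Slc6a9 (1.54).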
